A study of Mus musculus with 6 samples.

Results

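The genes described here encode 10 enzymes that modify and crosslink collagen: the lysyl oxidases Lox, Loxl1, Loxl2, Loxl3 and Loxl4, the lysyl hydroxylases Plod1, Plod2 and Plod3, and the catalytic alpha subunits of prolyl 4-hydroxylase, P4ha1 and P4ha2. They were chosen by gene symbol, with earlier results of these data known, and all 10 were found among the 22173 genes listed. RNA was measured by sequencing in whole retina of wild-type C57BL/6J mouse pups at postnatal day 17, in 3 libraries from Control pups kept in room air and 3 libraries of the OIR group, short for oxygen-induced retinopathy. Those pups breathed 75% oxygen between postnatal days 7 and 12 and room air from then on. In this model excess oxygen stops retinal vessels from growing, and once normal air is restored the tissue that lacks vessels is short of oxygen and grows abnormal ones. The labels do not say whether libraries came from separate animals or from pools, so each p-value reflects variation among these libraries alone, and that variation may be technical.

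Collagen chains are modified inside the cell before they fold. Prolyl 4-hydroxylase, a tetramer of alpha subunits with the P4hb protein, makes the hydroxyproline that keeps the triple helix stable at body temperature, and lysyl hydroxylases make the hydroxylysine that later carries sugars and mature crosslinks. Both kinds of enzyme need molecular oxygen, iron, ascorbate and 2-oxoglutarate. Lysyl oxidases are secreted copper enzymes that oxidise lysine and hydroxylysine side chains of collagen and elastin, after which the chains crosslink. In the eye such matrix lies in the basement membranes of vessels, in the inner limiting membrane, in the lens capsule and in the sclera. P4ha1, P4ha2, Plod1, Plod2, Lox and Loxl2 are known from other tissues as genes that hypoxia can induce.

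Values are RPKM, the reads of a gene scaled to its length and to the depth of the library, and a fold change is the difference of group means of log2(RPKM + 1). That scale understates the change of genes with low values. The libraries held 35615501 to 38025623 reads, a number recovered from the steps between low values. Lens RNA made up 6.90% of Control 3 and 0.597% of OIR 2 by reads, against 0.0256% to 0.0719% elsewhere. Control 1 stood apart in another way, with the least RNA of smooth muscle and connective tissue genes such as Myh11 and Dcn. Limma called 11.6% of the 12112 tested genes higher in OIR and 7.22% lower, 1407 and 875 genes. With median-of-ratios scaling the numbers were 1281 and 1313. Higher genes were 61.7% of the calls, and 49.4% with that scaling. The hypoxia-inducible genes Vegfa and Ndufa4l2 were far apart in the groups, at 45.0 to 46.9 RPKM in Control and 105 to 143 RPKM in OIR for Vegfa, and at 3.80 to 4.41 and 65.1 to 101 RPKM for Ndufa4l2. In both genes OIR 2 was the lowest OIR library.

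Most of the enzyme genes were higher in OIR, with Loxl2 showing the steepest rise. Of the 10 genes, 9 reached the minimum for testing, a value of at least 1 RPKM in at least 3 libraries, and Lox did not. Loxl2, Loxl3, Loxl4, Plod1, Plod2 and Plod3 rose, 6 of the 9 tested, where 11.6% of all tested genes were called higher. The number was 3 without Control 1 or without OIR 1, 4 without OIR 3, 5 without Control 2, 6 without Control 3 and 7 without OIR 2. Over all tested genes the numbers higher in these fits were, in the same order, 646, 410, 585, 945, 1212 and 1645. Between 11954 and 12049 genes were tested in them. Loxl1, P4ha1 and P4ha2 did not pass the threshold of 0.05 on the adjusted p. None of the tested members was lower by limma, with 0 also at an unadjusted p under 0.05 and 0 in a limma-voom fit on the recovered reads. The median log2 fold change of the 9 tested members was 0.49, and that of all tested genes was 0.03. In 6 of the 9 tested genes, and in Lox, every OIR value lay above every Control value, where 23.6% of all tested genes had such a pattern. OIR 2 was the lowest OIR library in all 10 genes, and OIR 3 was the highest in 9, Plod3 being the exception. Control 3 was the highest Control library in 8 genes, Loxl4 and Plod1 being the exceptions. Since whole tissue was measured, a change in the number of cells that express a gene and a change in RNA per cell cannot be told apart.

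**Figure D1:**
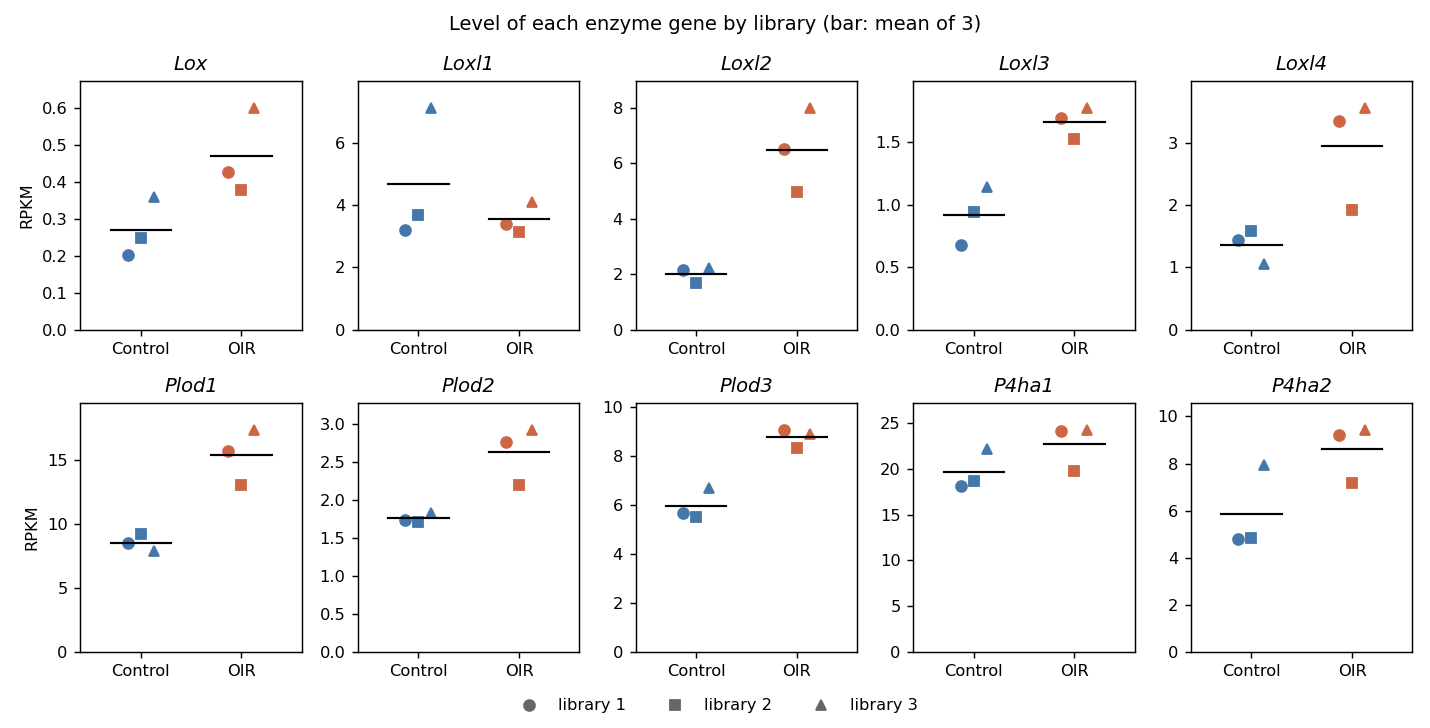
RPKM (linear axis from 0, a separate scale for each gene) of the 10 enzyme genes in the 3 Control and 3 OIR libraries. Points are single libraries with the marker giving the library number, and bars are group means. In 7 genes all OIR points lie above all Control points, while Loxl1, P4ha1 and P4ha2 overlap.

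By level, P4ha1 was the most abundant of the 10 genes and Lox the least, in both groups. The order of the group means in Control was P4ha1, Plod1, Plod3, P4ha2, Loxl1, Loxl2, Plod2, Loxl4, Loxl3 and Lox. In OIR it was P4ha1, Plod1, Plod3, P4ha2, Loxl2, Loxl1, Loxl4, Plod2, Loxl3 and Lox. Control values overlapped between Plod3 and P4ha2, P4ha2 and Loxl1, Loxl2 and Plod2, and Loxl4 and Loxl3. OIR values overlapped between Plod3 and P4ha2, P4ha2 and Loxl2, Loxl1 and Loxl4, and Loxl4 and Plod2. Loxl2 was thus below every Loxl1 value in Control and above every Loxl1 value in OIR. The mean of P4ha1 lay above that of 81% of the genes detected in any library in Control, and that of Lox above 23%. The order rests on the gene lengths that the depositors used, which can be read from the steps between values. For Plod2 that length was 9445 bases, 2.58 times the longest transcript in GENCODE M21, for Loxl4 it was 1.48 times, and for the other 8 genes it was between 0.766 and 1.10 times. A length that is too long lowers the RPKM of a gene by the same factor in all libraries, which leaves the ratio of the groups as it is but shrinks the fold change on the log2(RPKM + 1) scale. With a pseudocount of 0.1 in place of 1, the log2 fold change of Plod2 was 0.54 instead of 0.39, and that of Plod3 was 0.55 instead of 0.49.

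RefSeq promoter sequences were matched by symbol for 5 of the 10 genes, Loxl4, Plod1, Plod3, P4ha1 and P4ha2. They are shown because members of the set were higher together, and because hypoxia-inducible factors bind a short core element. The 250 bases before the annotated start are given 5′ to 3′ on the strand of the gene, build GRCm38.p6, with capitals marking the letters ACGTG or GCGTG on either strand (CACGT or CACGC when read on the gene's strand). These are Loxl4 at chr19:42612807-42613056 on the minus strand, Plod1 at chr4:147936777-147937026 on the minus strand, Plod3 at chr5:136986769-136987018 on the plus strand, P4ha1 at chr10:59323046-59323295 on the plus strand and P4ha2 at chr11:54100674-54100923 on the plus strand.
Loxl4: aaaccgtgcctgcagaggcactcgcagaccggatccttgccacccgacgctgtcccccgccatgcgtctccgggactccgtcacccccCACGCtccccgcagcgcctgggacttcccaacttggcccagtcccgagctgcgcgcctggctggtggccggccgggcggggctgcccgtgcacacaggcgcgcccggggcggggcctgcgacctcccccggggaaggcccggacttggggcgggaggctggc
Plod1: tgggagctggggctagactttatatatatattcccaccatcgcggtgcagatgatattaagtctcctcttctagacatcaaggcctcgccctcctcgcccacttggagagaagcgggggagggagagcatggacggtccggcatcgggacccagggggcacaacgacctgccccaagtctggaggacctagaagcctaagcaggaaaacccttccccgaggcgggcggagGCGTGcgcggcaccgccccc
Plod3: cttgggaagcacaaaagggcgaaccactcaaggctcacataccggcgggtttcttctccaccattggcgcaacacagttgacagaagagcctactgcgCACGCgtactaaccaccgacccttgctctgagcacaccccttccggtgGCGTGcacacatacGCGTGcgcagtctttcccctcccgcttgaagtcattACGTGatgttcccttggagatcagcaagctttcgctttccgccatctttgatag
P4ha1: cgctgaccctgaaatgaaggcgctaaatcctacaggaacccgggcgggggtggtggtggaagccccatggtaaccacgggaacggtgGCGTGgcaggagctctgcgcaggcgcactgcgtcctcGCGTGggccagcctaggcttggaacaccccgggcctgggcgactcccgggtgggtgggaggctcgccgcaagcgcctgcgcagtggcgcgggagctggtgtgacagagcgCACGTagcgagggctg
P4ha2: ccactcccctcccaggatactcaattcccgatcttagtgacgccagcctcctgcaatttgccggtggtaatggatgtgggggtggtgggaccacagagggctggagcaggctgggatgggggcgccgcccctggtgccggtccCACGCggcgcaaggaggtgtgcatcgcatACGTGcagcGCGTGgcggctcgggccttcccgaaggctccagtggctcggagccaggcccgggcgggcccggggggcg

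All 5 windows held at least 1 such match, where 38.6% of 32841 RefSeq promoter windows of the same length did. ACGTG was found once each in Plod3, P4ha1 and P4ha2, beginning 54, 16 and 78 bases before the start, and in 16.6% of all windows. GCGTG was found once in Loxl4 and in Plod1, 3 times in Plod3 and in 2 places each in P4ha1 and P4ha2, and in 28.2% of all windows. The windows were 55.6% to 76.0% G or C, against a median of 52.4% over all windows, and both motifs are rich in these bases. A match is a description of the letters and does not show binding. Of the genes with ACGTG, Plod3 rose and the groups of P4ha1 and P4ha2 overlapped. Loxl4 and Plod1, whose windows held GCGTG only, both rose. Any link between these motifs and the group differences was not tested.

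The alpha subunits of prolyl 4-hydroxylase were higher in most OIR libraries, and neither passed the threshold over all 6 libraries. P4ha1, which encodes the main catalytic subunit in most cells, was at 18.1 in Control 1, 18.7 in Control 2 and 22.2 RPKM in Control 3, and at 24.1 RPKM in OIR 1, 19.7 in OIR 2 and 24.3 in OIR 3. Control 3 lay above OIR 2, so the groups overlapped. P4ha2, the gene of the alternative catalytic subunit, was at 4.79 in Control 1, 4.84 in Control 2 and 7.95 RPKM in Control 3, and at 9.22, 7.19 and 9.43 RPKM in OIR 1, OIR 2 and OIR 3. Here too Control 3 was above OIR 2, while Control 1 and Control 2 lay close together below all other libraries. The log2 fold change of P4ha1 was 0.20 with a standard error of 0.099, a 95% interval from -0.02 to 0.42 and an adjusted p of 0.185 from limma. That of P4ha2 was 0.51 with a standard error of 0.189, a 95% interval from 0.06 to 0.96 and an adjusted p of 0.108.

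Both results of the alpha subunits depended on which libraries were used and how they were weighted. Without Control 3, which had 6.90% lens reads, P4ha2 passed at a log2 fold change of 0.72 and an adjusted p of 0.0114, and P4ha1 was at 0.28 and 0.0678. P4ha1 passed without OIR 2, at 0.29 and 0.0341, and P4ha2 did not, at 0.62 and 0.0937. When Control 3 and OIR 2 were both left out, a fit chosen after the data were seen, P4ha1 had a log2 fold change of 0.38 with an adjusted p of 0.00165, and P4ha2 one of 0.83 with an adjusted p of 0.000135. P4ha2 also passed with the replicate number as a block, at 0.0163, but whether the numbers pair the libraries was not tested. With array weights, which leave out no library, both passed, P4ha1 at 0.00869 and P4ha2 at 0.00221. With lens genes removed from the total neither passed, at 0.334 and 0.154. The part of lens tissue in these differences was not tested. P4hb, the gene of the beta subunit that also acts as protein disulfide isomerase, rose from 77.2 ± 3.14 to 96.8 ± 7.75 RPKM (SD, n = 3 each), a log2 fold change of 0.32 with an adjusted p of 0.0147 from limma. Its call ended without OIR 1 or OIR 3, at 0.0617 and 0.0761. P4ha3, the third alpha subunit gene, did not reach the minimum for testing, with 0.177 ± 0.0259 RPKM in the Controls and 0.340 ± 0.0206 RPKM in OIR.

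**Figure D2:**
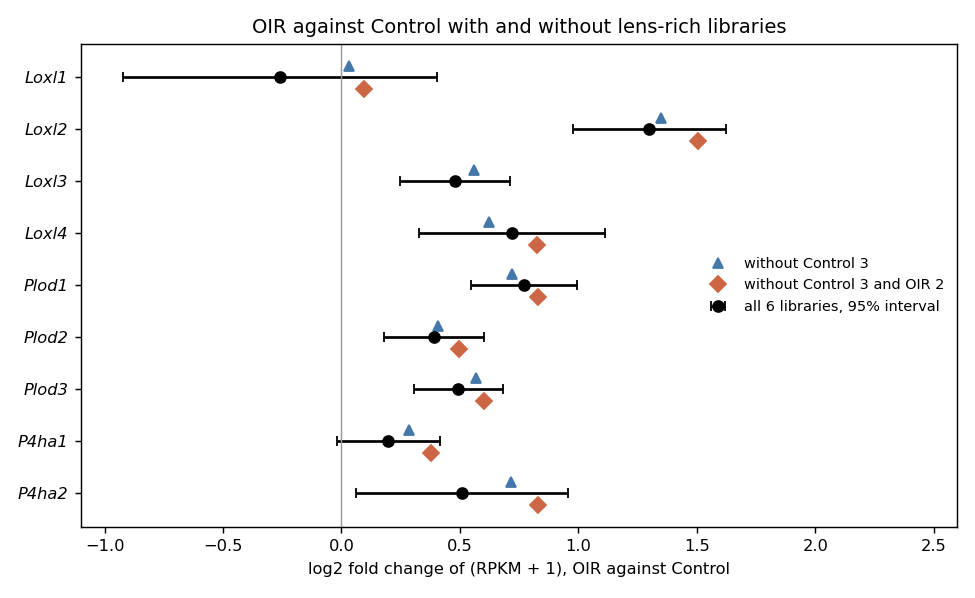
Log2 fold change of (RPKM + 1) in OIR against Control for the 9 tested enzyme genes. Black points are the fit on all 6 libraries with 95% intervals, blue triangles leave out Control 3, and orange diamonds leave out Control 3 and OIR 2. Loxl1 moves across 0 and P4ha1 and P4ha2 move up without these libraries, and Loxl3 had too few values of at least 1 RPKM for the last fit.

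All 3 lysyl hydroxylase genes rose in OIR, and in each of them the groups were apart. Plod1, which encodes the lysyl hydroxylase of helical lysines, was at 8.56 in Control 1, 9.23 in Control 2 and 7.89 RPKM in Control 3, and at 15.8, 13 and 17.4 RPKM in OIR 1, OIR 2 and OIR 3. The lowest OIR library was well above the highest Control library. Its ratio of group means was 1.80, its log2 fold change 0.77 with a standard error of 0.101, and its adjusted p 0.00115 from limma. Plod3, the gene of an enzyme that adds sugars to hydroxylysine as well as making it, was at 5.65, 5.50 and 6.70 RPKM in Control 1, Control 2 and Control 3, and at 9.06, 8.31 and 8.91 RPKM in OIR 1, OIR 2 and OIR 3. The OIR libraries lay close together, and Control 3 was the highest of the Controls. Its ratio was 1.47, its log2 fold change 0.49 with a standard error of 0.085, and its adjusted p 0.00464. Plod2, which encodes the hydroxylase of the telopeptide lysines at the chain ends, was at 1.73, 1.71 and 1.83 RPKM in Control 1, Control 2 and Control 3, and at 2.76, 2.19 and 2.92 RPKM in OIR 1, OIR 2 and OIR 3. The Control libraries were nearly level and OIR 2 was the nearest to them. Its ratio was 1.49, its log2 fold change 0.39 with a standard error of 0.096, and its adjusted p 0.020.

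The calls of Plod1 and Plod3 held under every alternative tried, with adjusted p up to 0.0142 and 0.0317. That of Plod2 ended without Control 1, Control 2, OIR 1 or OIR 3, at 0.0697, 0.0600, 0.0920 and 0.0825, with log2 fold changes of 0.38, 0.38, 0.36 and 0.33. On the plain ratio Plod2 and Plod3 rose by much the same factor. In Plod3, 11.7% of the exon bases in GENCODE M21 overlap the gene Znhit1 on the opposite strand, and the strand setting of the counting is not given in the sources used here. Znhit1 had means of 26.4 and 26.1 RPKM in Control and OIR, with a log2 fold change of -0.02 and an adjusted p of 0.868.

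Among the lysyl oxidases, 3 of the 4 tested genes rose and the most abundant Control member did not pass. Loxl2, an enzyme gene that acts on basement membrane collagen and is expressed by endothelial cells, was at 2.15 in Control 1, 1.67 in Control 2 and 2.21 RPKM in Control 3, and at 6.50, 4.96 and 8.0 RPKM in OIR 1, OIR 2 and OIR 3. Every OIR library lay above every Control library by a wide gap. Its ratio of group means was 3.23, its log2 fold change 1.30 with a standard error of 0.144 and a 95% interval from 0.98 to 1.62, and its adjusted p 0.000833 from limma. Loxl4 was at 1.44, 1.59 and 1.06 RPKM in Control 1, Control 2 and Control 3, and at 3.35, 1.93 and 3.57 RPKM in OIR 1, OIR 2 and OIR 3. OIR 2 stood only a little above the highest Control, and the other OIR libraries stood far above it. Its ratio was 2.16, its log2 fold change 0.72 with a standard error of 0.171, and its adjusted p 0.0236. Loxl3, which belongs with Loxl2 and Loxl4 to the oxidases with scavenger receptor domains, was at 0.680, 0.941 and 1.14 RPKM in Control 1, Control 2 and Control 3, and at 1.70, 1.52 and 1.78 RPKM in OIR 1, OIR 2 and OIR 3. The groups did not overlap, and the Control libraries were the more scattered. Its ratio was 1.81, its log2 fold change 0.48 with a standard error of 0.105, and its adjusted p 0.0123. Loxl3 reached the minimum for testing through the OIR libraries, with Control 3 the only Control at 1 RPKM or more. With no filter its adjusted p was 0.0349.

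The call of Loxl2 held under all 15 alternatives, at adjusted p up to 0.00925, while the other calls depended on single libraries. That of Loxl4 ended without Control 1, Control 3, OIR 1 or OIR 3, at 0.0809, 0.0642, 0.104 and 0.0669, with no filter, at 0.0524, and with the replicate number as a block, at 0.0521. Without OIR 2 its log2 fold change was 0.92 and its adjusted p 7.52e-05. That of Loxl3 ended without Control 1 or OIR 1, at 0.0528 and 0.0562. In Loxl3, 11.6% of the exon bases overlap Htra2 on the opposite strand, and Htra2 had means of 12.1 and 12.9 RPKM in Control and OIR, with an adjusted p of 0.468.

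The other lysyl oxidases, Lox and Loxl1, gave no call. Loxl1, an oxidase gene tied to elastic fibres, was at 3.19 in Control 1, 3.68 in Control 2 and 7.13 RPKM in Control 3, and at 3.39, 3.15 and 4.10 RPKM in OIR 1, OIR 2 and OIR 3. Control 3 stood far above the other libraries, which were close together whatever their group. The log2 fold change was -0.26 with a 95% interval from -0.92 to 0.40 and an adjusted p of 0.551. Without Control 3 it was 0.032, with an adjusted p of 0.857. Lox, the founding member of the family, was at 0.201, 0.249 and 0.357 RPKM in Control 1, Control 2 and Control 3, and at 0.428, 0.378 and 0.60 RPKM in OIR 1, OIR 2 and OIR 3. These values rest on 34 to 58 reads per Control library and 63 to 104 reads per OIR library, against 103 to 3796 reads per library for the other members. Its groups did not overlap, with a ratio of group means of 1.74, but Control 3 and OIR 2 were close. Lox was not tested in the fit on all libraries, and with no filter its adjusted p was 0.113 at a log2 fold change of 0.21, and with a filter at 0.3 RPKM it was 0.139.

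Within the lysyl oxidases the gene with the highest RPKM differed between the groups. Loxl1 held 41.6%, 45.3% and 60% of the summed RPKM of the family in Control 1, Control 2 and Control 3, and 22.1%, 26.4% and 22.7% in OIR 1, OIR 2 and OIR 3. Loxl2 held 28.0%, 20.5% and 18.6% in the Controls and 42.3%, 41.6% and 44.3% in the OIR libraries. By RPKM every OIR library had more Loxl2 than Loxl1 and every Control library had less. Counted in reads, Control 1 held more Loxl2 than Loxl1, 468 against 396 reads, so the order of these genes in Control 1 rests on the gene lengths used. The share of Loxl2 was 20.4 percentage points higher in OIR and stayed 18.5 to 23.2 points higher when single libraries were left out. On recovered reads, which are not divided by length and so give longer genes more weight, it was 20.6 points higher. The two-sided exact permutation test gave p = 0.1, the smallest that 3 against 3 libraries allow, and 0.2 after adjustment over the 10 shares of the 3 families. The shares of Lox, Loxl3 and Loxl4 overlapped between the groups. The summed RPKM of the family was 9.23 ± 2.32 in Control and 15.1 ± 3.06 in OIR (SD, n = 3 each), and all OIR sums were above all Control sums, with an exact p of 0.1.

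The lysyl hydroxylases rose together, and the shares of the members shifted by less than 5 percentage points. Plod1 held 52.6% ± 4.13 of the family RPKM in Control and 57.3% ± 2.09 in OIR, and these shares overlapped. Counted in reads its share was 39.6% to 46.7% in Control and 46.9% to 49.9% in OIR, narrowly without overlap and with an exact permutation p of 0.1. Plod3 held 36.6% ± 3.80 and 32.9% ± 2.42, also overlapping. Plod2 held 10.4% to 11.1% in the Controls and 9.30% to 10% in the OIR libraries, a difference of -1.03 percentage points with no overlap and an exact permutation p of 0.1. Counted in reads, which give longer genes more weight, Plod2 held 25.9% of the family in Control and 23.9% in OIR. The size of its share thus depends on whether and by what length reads are divided. The family sum was 16.3 ± 0.278 in Control and 26.8 ± 2.92 RPKM in OIR, with no overlap of the groups and an exact permutation p of 0.1 (n = 3 each). Of the alpha subunits, P4ha2 held 21.0%, 20.6% and 26.4% in Control 1, Control 2 and Control 3 and 27.7%, 26.7% and 28.0% in the OIR libraries. Control 3 was near the OIR libraries and the other Controls were lower. The difference was 4.81 percentage points, with an exact permutation p of 0.1.

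**Figure D3:**
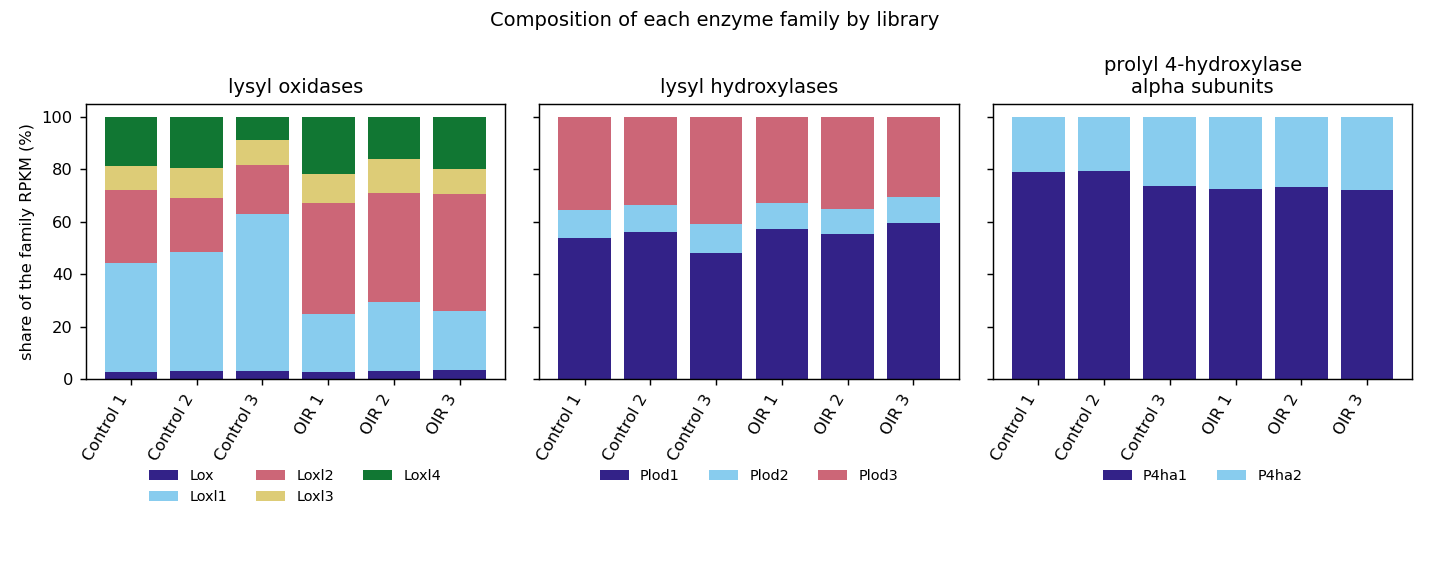
Share of each gene in the summed RPKM of its enzyme family (percent, bars from 0 to 100) for the 6 libraries. Loxl1 is the largest lysyl oxidase block in the 3 Control libraries and Loxl2 in the 3 OIR libraries, while Plod1 holds between 48.1% and 59.5% of the lysyl hydroxylases in all libraries.

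Other genes of collagen making, its cofactors and the response to hypoxia were described from 11 lists of 116 genes, also chosen with earlier results known. Of these 89 were tested, 39 were higher and 2 lower, where 11.6% and 7.22% of all tested genes were called. Among other prolyl hydroxylation genes 4 of 8 tested rose, and the list had a median log2 change of 0.27. P3h3, which acts on lysine hydroxylation together with P3h4, rose from 4.74 ± 0.533 to 8.56 ± 0.541 RPKM, with an adjusted p of 0.000644. Ppib, the gene of the prolyl isomerase cyclophilin B, rose from 99.0 ± 3.49 to 117 ± 4.84 RPKM, with an adjusted p of 0.0295. That call was lost under median-of-ratios scaling, at 0.0616, with lens genes removed from the total, at 0.0647, and without Control 1, Control 2, OIR 1 or OIR 3, at 0.101, 0.0974, 0.114 and 0.146. Among glycosylation and folding genes 5 of 10 tested rose, with a median of 0.26. Fkbp10, a chaperone gene needed for telopeptide lysine hydroxylation by the Plod2 enzyme, rose from 4.20 ± 0.606 to 7.85 ± 1.16 RPKM, with an adjusted p of 0.00207. Colgalt1, which encodes the galactosyltransferase of hydroxylysine, rose from 17.2 ± 0.578 to 23.2 ± 1.26 RPKM, with an adjusted p of 0.00376. Sparc, a gene of a collagen-binding matrix protein, rose from 274 ± 40.7 to 384 ± 31.4 RPKM, with an adjusted p of 0.0121 that was 0.0576 without Control 1 and 0.0582 without OIR 1.

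Procollagen processing genes went both ways. Of 5 tested, Bmp1 rose and Tll1 fell. Bmp1, whose protease cuts the C-propeptides of collagen and also activates lysyl oxidase, went from 5.49 ± 1.53 to 12.5 ± 3.24 RPKM, with an adjusted p of 0.0362 from limma. Its call ended without Control 1, Control 2, OIR 1 or OIR 3, at 0.128, 0.0992, 0.155 and 0.0827, and with limma-voom, at 0.0502. Tll1, a related protease gene, went from 1.62 ± 0.278 to 1.0 ± 0.259 RPKM, with an adjusted p of 0.0396, and passed only without OIR 2 among the fits that left out 1 library, at up to 0.159 in the others. Its call was also lost with no filter, at 0.0813. Pcolce, the gene of the enhancer of that protease, was at 1.22, 2.56 and 5.0 RPKM in Control 1, Control 2 and Control 3 and at 29.7, 9.40 and 39.1 RPKM in OIR 1, OIR 2 and OIR 3. Its groups did not overlap, the OIR libraries were widely spread, and its adjusted p was 0.0748, or 0.0354 without OIR 2. Adamts3 and Pcolce2 did not pass, with log2 fold changes of 0.23 and -0.27 and adjusted p of 0.0645 and 0.103. They passed without 1 library each, Adamts3 without OIR 2 at 0.0267 and Pcolce2 without Control 3 at 0.0405. Of other crosslinking genes, the transglutaminase gene Tgm2 rose from 1.64 ± 0.441 to 7.71 ± 3.07 RPKM, with an adjusted p of 0.0273. That call ended without Control 1, Control 2, OIR 1 or OIR 3, at 0.109, 0.0678, 0.124 and 0.0728, with the replicate block, at 0.123, and with limma-voom, at 0.0641. Pxdn, the gene of the peroxidase that crosslinks collagen IV, was at 5.09 ± 1.96 and 7.74 ± 0.849 RPKM and did not pass, at 0.133, but passed without Control 3, at 0.00601. Tll2, Adamts2, Adamts14, Mep1a and Mep1b of the processing list and Tgm1 and F13a1 of the crosslinking list did not reach the minimum for testing, at no more than 0.630 RPKM in any library.

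The substrates of these enzymes moved unevenly. Of 6 tested fibrillar collagen genes 4 rose, with a median log2 fold change of 0.86. Among them Col5a1 rose and Col1a1 did not pass, and both reached the minimum for testing only through the OIR libraries. Col5a3 rose from 1.26 ± 0.0861 to 4.30 ± 0.481 RPKM, with an adjusted p of 4.41e-05 from limma. Col2a1 rose from 10.9 ± 0.869 to 28.1 ± 3.96 RPKM, with an adjusted p of 8.73e-05. Col3a1 rose from 1.48 ± 0.536 to 3.20 ± 0.405 RPKM, with an adjusted p of 0.0118 that was 0.0626 without OIR 1 and 0.0506 without OIR 3. Of 6 basement membrane and network collagen genes, Col15a1 rose from 0.357 ± 0.0929 to 1.25 ± 0.145 RPKM and Col8a1 fell from 1.95 ± 0.415 to 1.13 ± 0.117 RPKM, with adjusted p of 0.00119 and 0.0190. Col15a1 reached the minimum for testing only through the OIR libraries. It passed under all 11 alternatives in which it was tested, at up to 0.00748. The Col8a1 call ended without Control 2, Control 3 or OIR 1, at 0.0570, 0.0549 and 0.0853. Col4a1, a main chain of vessel and lens capsule basement membrane, was at 8.94, 8.82 and 49.5 RPKM in Control 1, Control 2 and Control 3 and at 53.2, 35.9 and 51.9 RPKM in OIR 1, OIR 2 and OIR 3. Control 3 lay among the OIR libraries. The gene did not pass, at 0.281, but had an adjusted p of 0.00482 and a log2 fold change of 2.26 without Control 3. Of 12 elastic fibre genes 3 rose, with a median of 0.11. Ltbp4 rose from 2.57 ± 0.0548 to 3.78 ± 0.115 RPKM, with an adjusted p of 0.00563. Emilin1 and Efemp2 rose by 0.47 and 0.71 on the log2 scale, with adjusted p of 0.0179 and 0.0217. Leaving out Control 1, Control 2 or OIR 1 ended both calls, with values of 0.0545 to 0.0988. Efemp2 encodes fibulin 4, which guides lysyl oxidase to elastin.

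Genes that supply the cofactors of the enzymes held 1 call in each of 2 lists, with median log2 fold changes of 0.16 for copper delivery and 0.11 for ascorbate and 2-oxoglutarate supply. Of 6 tested genes of copper delivery 1 rose, where 11.6% of all tested genes did. This was Atp7b, from 3.14 ± 0.233 to 4.79 ± 0.675 RPKM, with an adjusted p of 0.0102 that was 0.0553 without OIR 1. Atp7a, the copper pump known to load lysyl oxidases, was at 2.30 ± 0.0980 and 2.95 ± 0.532 RPKM, with an adjusted p of 0.118, or 0.00997 without OIR 2. The copper importer gene Slc31a1 was at 14.3 ± 0.265 and 15.8 ± 0.740 RPKM, with an adjusted p of 0.168. Of 7 genes of ascorbate and 2-oxoglutarate supply 1 rose, Slc2a1, a glucose transporter that also carries oxidised ascorbate, from 114 ± 2.89 to 167 ± 29.2 RPKM, with an adjusted p of 0.0113 that was 0.0502 without Control 1 and 0.0566 without OIR 1. Slc2a3 and Idh1 did not pass, with log2 fold changes of 0.28 and -0.09 and adjusted p of 0.0861 and 0.362.

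The oxygen sensing list holds dioxygenases of the same enzyme class as the collagen hydroxylases, with the factors they act on and the Vhl protein that recognises the product, and 4 of 8 tested rose. Egln3, a prolyl hydroxylase gene of the hypoxia-inducible factors and itself a target of them, was at 1.35, 1.42 and 2.03 RPKM in Control 1, Control 2 and Control 3 and at 8.19, 4.37 and 10.9 RPKM in OIR 1, OIR 2 and OIR 3. Its groups were far apart, and OIR 2 was again the lowest OIR library. Its adjusted p was 0.0261, which became 0.107, 0.101 and 0.126 without Control 1, Control 2 or OIR 1, and 0.0621 with limma-voom. Egln1 rose by 0.60 on the log2 scale with an adjusted p of 0.0206, and its call ended without Control 1, Control 3 or OIR 1, at 0.0833, 0.0625 and 0.0989, and with the replicate block, at 0.0714. Vhl rose by 0.23 with an adjusted p of 0.0429, a call that held only without OIR 2 among the fits that left out 1 library, with 0.0559 to 0.182 in the others, and was lost with no filter, at 0.0636, and with the replicate block, at 0.0711. Of 19 tested glycolytic and other hypoxia-inducible genes 14 rose, with a median log2 fold change of 0.39. Adm, the gene of the vessel peptide adrenomedullin, rose from 0.333 ± 0.0273 to 9.91 ± 3.92 RPKM, with an adjusted p of 0.00302. It too reached the minimum for testing only through the OIR libraries. Symbols of 3 listed genes, Ctage5, Pxdnl and Ca9, have no row in the tables used.

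**Figure D4:**
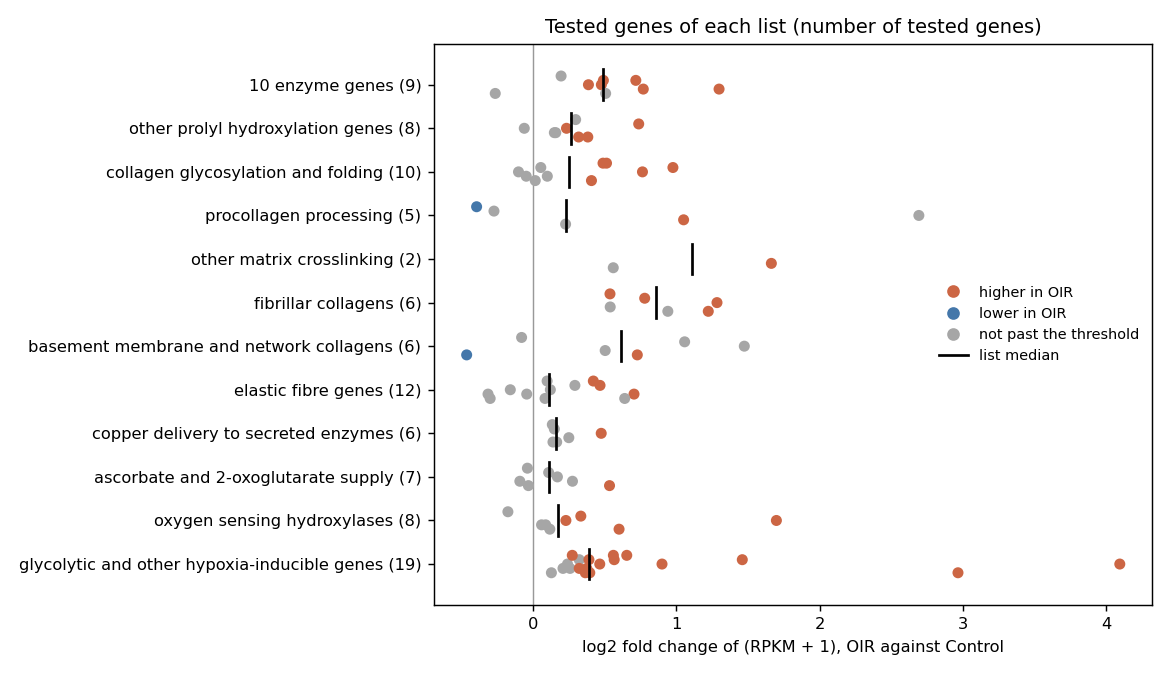
Log2 fold change of (RPKM + 1) in OIR against Control for each tested gene of the 10 enzymes and of 11 other lists, with the number of tested genes in brackets and the list median as a black line. Of the 9 tested enzyme genes 6 are marked as higher, and the medians of the other lists run from 0.11 for ascorbate and 2-oxoglutarate supply and for elastic fibre genes to 1.11 for the 2 other crosslinking genes.

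Markers of some cell types were mostly higher in OIR, and those of others were not. The summed RPKM of 15 endothelial markers was 75.9 to 81.2 in the Control libraries and 139 to 151 in the OIR libraries, and 13 of the 15 rose. For 13 pericyte and smooth muscle markers it was 33.6 to 58.6 and 84.2 to 110, and 7 of 10 tested rose. For 15 markers of microglia and macrophages it was 48.0 to 52.7 and 126 to 173, and 12 of 14 tested rose. For 12 markers of astrocytes and Müller glia it was 2014 to 2155 and 1790 to 1909, with 3 of 11 tested higher and 6 lower. Of the genes that rose, Erg and Robo4 of the endothelial list reached the minimum for testing only through the OIR libraries. So did Notch3 and Des of the pericyte and smooth muscle list. The 14 connective tissue markers summed to 229 to 231 and 214 to 235, a sum made up mostly of Thy1, which retinal ganglion cells also express. Of this list Pdgfra, Col3a1 and Mgp rose, 3 of 9 tested, and the 1 that fell was Thy1 itself. Thy1 was at 169 to 188 RPKM in Control and 112 to 156 RPKM in OIR, so the sum says little about the other genes. The tested genes of the list had a median log2 fold change of 0.50. Kera, a corneal and scleral gene, was at 0 in all libraries. Control 1 was the lowest of the 6 libraries in 9 of the 13 connective tissue markers above 0 and in 7 of the 13 pericyte and smooth muscle markers, against 1 and 4 for Control 2 and 1 and 2 for Control 3. Genes picked out after their values were seen were Dcn, a defining gene of fibroblasts, at 0.383 RPKM in Control 1 and 1.69 to 2.19 RPKM in the other 5 libraries, and the smooth muscle genes Myh11, at 0.054 and 1.23 to 1.56 RPKM, and Tagln, at 0.763 and 7.06 to 15.6 RPKM. Without Control 1 the number of enzyme genes called higher was 3 instead of 6, and it was also 3 without OIR 1. Over all tested genes the fit without Control 1 called 646 higher instead of 1407. The calls of Loxl3, Loxl4 and Plod2 ended there, with log2 fold changes of 0.39, 0.75 and 0.38 against 0.48, 0.72 and 0.39. Of 8 tested pigment epithelium markers none rose and 2 fell, Rgr and Rlbp1, and the sum was 303 to 344 and 232 to 263. Rlbp1 made up most of that sum, at 227 to 269 RPKM in Control and 180 to 206 RPKM in OIR. It is also in the list of astrocytes and Müller glia, so the sum is not particular to pigment epithelium. The 20 lens markers, none of which passed, summed to 79597 in Control 3 and 6993 in OIR 2, and to 189 to 736 in the other libraries. In OIR 2, which held the least RNA of all 10 enzyme genes among the OIR libraries, the sums of the endothelial, pericyte and microglial markers were also the lowest of the OIR libraries. The sums of the connective tissue, pigment epithelium, glial and lens markers were the highest of the OIR libraries there. The connective tissue sum followed Thy1, at 112, 156 and 124 RPKM in OIR 1, OIR 2 and OIR 3. In that list Dcn, Lum, Fmod, Pdgfra, Mgp, Col1a1, Col1a2, Col3a1 and Prelp were lowest of the OIR libraries in OIR 2. Ogn, Dpt and Twist1 were not. Glul made up most of the glial sum. In the glial list Gfap, Vim, Sox9, Pax2 and Dkk3 were lowest in OIR 2 among the OIR libraries, and its other genes were highest there. The part of cell makeup in the differences of the enzyme genes was not tested.

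Genes with the most similar pattern over the 6 libraries were taken for the member of each family with the smallest adjusted p, by Pearson's r of log2(RPKM + 1). For Loxl2 these were Ncapd2, Nxph4 and Igf2r, with r of 0.998, 0.996 and 0.996. For Plod1 they were Gnai2, Zcchc24 and Unc5b, with r of 0.999, 0.999 and 0.998. For P4ha2 they were Setd4, Mpp7 and S100a11, with r of 0.996, 0.996 and 0.995. With 6 libraries in 2 groups such values are common: 49 genes had an r over 0.99 with Loxl2, 65 with Plod1 and 8 with P4ha2. The libraries share their group difference and their depth normalisation, so r is given as a description only.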

How the data were processed

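The deposited files hold 1 RPKM value per gene symbol and library. Per the submitters' processing notes, TopHat2 2.0.12 and Bowtie2 2.0.6 were used. The sources used here do not give the counting program, strand setting, genome build or annotation. The library protocol in the labels describes another species, so library type is uncertain. Groups and replicate numbers came from the sample titles. Whole reads were recovered within 0.02 of a read for 17952 of 17953 genes above 0, with relative depth from the steps of low values and absolute depth from GENCODE M21 lengths of 85 genes. Depth differed by a factor of 1.07 between libraries.

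Groups were compared on log2(RPKM + 1) by limma 3.58.1 (R 4.3.3; trend = TRUE, robust = TRUE), for 12112 genes with at least 1 RPKM in at least 3 libraries, two-sided, with Benjamini-Hochberg adjustment over all of them and a threshold of 0.05. Every adjusted p is from limma, except that of the family shares, a Benjamini-Hochberg adjustment of exact permutation p-values. The 10061 other genes were not tested. Tested on simulated data for OIR against Control (12024 genes), limma found 11.9%, 56.1% and 90.8% of genes changed 1.25-fold, 1.5-fold and 2-fold, and called 0.0338% of unchanged genes. The simulated counts were drawn independently, with few genes changed and no shift shared by many genes of a library. These rates may therefore not hold for the real libraries. Shares of a family were compared with exact permutation tests. Members and lists were chosen with earlier results of these data known. Named genes are the 10 members, up to 3 tested genes per other list with the smallest adjusted p (all where 5 or fewer were tested), Vegfa, Ndufa4l2 and the most similar genes, passing over gene models and sex-linked genes. P4ha3, Znhit1, Htra2, Col5a1 and marker genes are named outside this rule. Alternatives were 2 other scalings, a pseudocount of 0.1, no filter, a filter at 0.3 RPKM, a replicate block, array weights and each library left out. A limma-voom fit on recovered reads and a fit without Control 3 and OIR 2 were added after seeing the data.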

Additional observations from a re-analysis of the deposited data

How the results depend on the processing

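Loxl2, Plod1 and Plod3 stayed past the threshold under all 15 alternatives, Loxl3 under 12 of 14, Plod2 under 11 of 15 and Loxl4 under 9 of 15. P4ha1 passed under 3 and P4ha2 under 4 of 15. Loxl1 passed under none, and its log2 fold change ran from -0.45 without Control 1 to 0.032 without Control 3, and was 0.094 without both lens-rich libraries, Control 3 and OIR 2. With single libraries left out, 3 to 7 members were higher and 0 lower. The same fits called 410 to 1645 genes higher and 198 to 1281 lower over all tested genes, and 12 to 44 higher and 0 to 3 lower among the other collagen and hypoxia lists. Over all tested genes the fewest calls came without OIR 1. Genes called lower numbered 1313 with median-of-ratios scaling, 529 with no filter and 1877 without both lens-rich libraries, and array weights gave 2231 higher and 1948 lower. In the other lists 1 gene was lower with no filter, 5 with array weights and 5 without both lens-rich libraries. The difference in family share turned to -0.20 percentage points for Lox and -0.15 for Loxl3 when reads were used, and Plod1 shares no longer overlapped. The causes were not tested. Same-numbered libraries had correlations of deviations of 0.22, -0.44 and -0.41. Among differently numbered libraries they ran from -0.42 to 0.49, the highest being that of the lens-rich Control 3 and OIR 2. Whether the numbers pair the libraries was not tested. With the replicate block, 6 members were higher, P4ha2 taking the place of Loxl4, and 1222 genes were higher and 809 lower. Of the members, depth limits Lox the most, at 34 to 104 reads.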
